A study of Mus musculus with 40 samples.

Results

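Glycolysis and hypoxia response genes were followed in spleen B cells of Dock10 knockout and wild-type mice, before culture and after culture with or without IL-4. The list holds 38 genes, taken by symbol for their known roles and with earlier results of these data in view, of which 36 were measured among 21892 named genes. It has 3 classes. Core glycolysis holds the glucose transporters, the enzymes from hexokinase to lactate dehydrogenase and the lactate transporters (18 of 20 measured). Regulators and glycogen holds kinases that set glycolytic flux or pyruvate use, phosphoglucomutase and glycogen synthase (6 of 6). The HIF axis and targets holds Hif1a, its prolyl hydroxylases and genes known as targets of hypoxia-inducible factor (12 of 12). The measured members were covered by 65 probes, and 16 members had several, which were averaged. Gpi1 and Eno1 were not analysed here.

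RNA of B cells from 20 C57BL/6 mice, all 12 weeks old, was hybridised to 40 Agilent arrays with 2 dyes. B cells had been enriched from spleen by negative selection, that is, by removing other cells. Cells were cultured for 18 h in medium with fetal calf serum. Those of Dock10 knockout mice 6 to 10 with IL-4 at 10 ng/ml formed KO_IL4 (n = 5), and those of wild-type mice 6 to 10 formed WT_IL4 (n = 5). Cultures of the same mice with nothing added formed KO_Ctrl and WT_Ctrl (n = 5 each). Cells that were not cultured formed KO_Pre and WT_Pre (n = 10 each), of which mice 6 to 10 entered the comparisons with cultured cells. The Dock10 allele and the cells that lack it are not described further in the labels. Each value is a log2 ratio of a sample (Cy5) to 1 pool of RNA from KO_Pre mice 6 to 10 (Cy3), so it tells how a gene compares with knockout cells before culture and not how abundant its RNA is.

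Glycolysis splits glucose into pyruvate in the cytosol, and lactate dehydrogenase can turn the pyruvate into lactate, which monocarboxylate transporters export. Many of its enzymes exist as isoforms encoded by separate genes. Hypoxia-inducible factor is a transcription factor whose alpha subunit is marked for degradation by prolyl hydroxylases while oxygen is present, and it is known to drive many glycolysis genes together with genes for vessel growth, collagen modification and mitophagy. Resting B cells use little glucose, and B cells activated through their receptors or by cytokines are known to raise uptake.

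Several facts of the whole series bear on these values. Dock10 itself, measured by probes whose place relative to the deleted part is not known here, was lower in knockout cells in the cultured comparisons. Its log2 ratio averaged 0.52 ± 0.21 in KO_IL4 and 1.59 ± 0.31 in WT_IL4, and -1.12 ± 0.33 in KO_Ctrl and -0.57 ± 0.22 in WT_Ctrl (SD, n = 5 each). In the limma fit the adjusted p was 0.000223 with IL-4 and 0.0295 without it. Before culture Dock10 averaged -0.08 ± 0.20 in KO_Pre and 0.30 ± 0.23 in WT_Pre (SD, n = 10 each), and these groups overlapped and were not called (-0.38, adjusted p = 1). The direction of the ratio was read with the same gene, so Dock10 does not check the label and the direction separately. Xist, an RNA made from the silenced X chromosome of female cells, lay between 4.74 and 5.92 in 10 arrays before culture, which included those numbered 10 of both genotypes, and between -1.59 and -0.06 in all 20 cultured arrays, those numbered 10 included. The labels give the cultured and uncultured arrays numbered 10 to the same mice, which these values go against, so counts are also given without the uncultured arrays numbered 10. Wild-type mouse 6 stood nearest to the knockout mean among the 5 wild-type mice for 18 of the 36 members in the cultures without IL-4 and for 16 with IL-4, and counts are given without it too. In bulk RNA, fewer cells of a type and less RNA per cell cannot be told apart.

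Marker lists moved with culture and genotype, and their part in the results below was not tested. Of 7 measured B cell markers, 7 were lower in KO_Ctrl than in KO_Pre and 2 were lower in WT_Ctrl than in WT_Pre. Their median ratio per array ranged from -1.21 to -1.01 in KO_Ctrl and from -0.77 to -0.29 in WT_Ctrl, and the KO_Ctrl against WT_Ctrl test called 7 of 7 lower. Of 11 macrophage and monocyte markers, 4 were higher and 4 lower in KO_Ctrl than in KO_Pre, and 2 were higher and 4 lower in WT_Ctrl than in WT_Pre. Their median ratio ranged from -0.28 to 0.17 in KO_Ctrl and from -0.37 to 0.06 in KO_Pre, and from -0.36 to 0.41 in WT_Ctrl and from -0.25 to 1.14 in WT_Pre. In KO_Ctrl against KO_Pre, 4 of 5 platelet, 4 of 6 NK cell and 4 of 7 dendritic cell markers were lower. In WT_Ctrl against WT_Pre, 5 of 5, 5 of 6 and 5 of 7 were lower. Of these lists, 1 NK cell marker was higher in KO_Ctrl. Of 6 erythroid markers, 2 were higher and 1 lower in KO_Ctrl, and 0 higher and 3 lower in WT_Ctrl. Of 7 T cell markers, 2 were higher and 3 lower in KO_Ctrl, and 1 higher and 2 lower in WT_Ctrl. Of 9 neutrophil markers, 1 was higher and 3 lower in KO_Ctrl, and 2 higher and 4 lower in WT_Ctrl. Of all genes, 31.2% were lower in KO_Ctrl and 26.4% in WT_Ctrl. Ratios do not show which markers are absent. The dark corner controls, spots without target that report background, differed by -1.86 between KO_Ctrl and KO_Pre and by -1.19 between WT_Ctrl and WT_Pre on the log2 scale, so a low ratio after culture can also stand for background.

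The letters ACGTG are a form of the site that hypoxia-inducible factor is known to bind. The windows of 250 bases before the start of each gene were read for them on both strands (CACGT on the other strand). Other forms of the site were not read and are not in capitals below. Windows came from RefSeq on GRCm38.p6, with the most upstream start taken for a gene that has several, and 33 of the 36 measured members had one. Of these, 18 (54.5%) held the letters, against 16.5% of 27025 windows of all genes and 18.2% of the 17195 windows of genes measured here. The list was chosen by known roles and includes known targets of the factor, so nothing is read from the higher share. By class the count was 7 of 10 in the HIF axis and targets, 8 of 17 in core glycolysis and 3 of 6 in regulators and glycogen. In 5 members a match overlapped CACGTG, a palindrome that other factors also bind and that 6.04% of all windows hold. Shown here are the members with a match that differed most in wild-type cells, 2 after culture and 2 with IL-4, each 5′ to 3′ on the strand of the gene with the matches in capitals. Ankrd37, an ankyrin repeat protein gene, lies after chr8:45999851-46000100 (minus strand). P4ha1, a subunit of collagen prolyl hydroxylase, lies after chr10:59323046-59323295 (plus strand). Pgm2, a phosphoglucomutase gene, lies after chr5:64092689-64092938 (plus strand), and Pdk3, a kinase that inhibits pyruvate dehydrogenase, after chrX:93832151-93832400 (minus strand).
Ankrd37: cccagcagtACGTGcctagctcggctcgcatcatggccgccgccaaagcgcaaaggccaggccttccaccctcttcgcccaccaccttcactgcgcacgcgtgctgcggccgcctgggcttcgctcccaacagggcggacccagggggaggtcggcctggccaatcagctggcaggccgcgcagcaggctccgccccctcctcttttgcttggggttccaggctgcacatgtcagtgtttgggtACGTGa
P4ha1: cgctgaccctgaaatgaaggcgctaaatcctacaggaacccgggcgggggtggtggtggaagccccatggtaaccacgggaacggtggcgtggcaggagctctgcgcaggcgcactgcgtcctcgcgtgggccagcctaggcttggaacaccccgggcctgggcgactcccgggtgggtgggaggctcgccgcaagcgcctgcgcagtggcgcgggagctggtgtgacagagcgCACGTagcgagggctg
Pgm2: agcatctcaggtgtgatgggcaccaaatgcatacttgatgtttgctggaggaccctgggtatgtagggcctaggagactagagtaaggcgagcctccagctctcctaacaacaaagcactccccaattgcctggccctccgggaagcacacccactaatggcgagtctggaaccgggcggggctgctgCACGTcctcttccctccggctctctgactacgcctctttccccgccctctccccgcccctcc
Pdk3: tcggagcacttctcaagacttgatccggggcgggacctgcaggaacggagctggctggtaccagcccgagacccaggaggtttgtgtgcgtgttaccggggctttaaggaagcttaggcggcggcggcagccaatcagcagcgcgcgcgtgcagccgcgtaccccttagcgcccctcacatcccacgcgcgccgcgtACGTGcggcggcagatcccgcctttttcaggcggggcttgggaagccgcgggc

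The matches began 241 and 6 bases before the start in Ankrd37, 16 bases before it in P4ha1, 62 in Pgm2 and 53 in Pdk3. The first pair of genes fell in culture and the second pair rose with IL-4, as given below. The windows of Vegfa, Aldoa, Aldoc, Eno2 and Ldhb, which were also called in culture, did not hold the letters. A match describes the sequence and does not show a bound site. As other forms of the site were not read, lack of a match does not show that a window holds no site.

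Of the 36 members, 26 were called in at least 1 of 9 comparisons and 10 in none. Called means an adjusted p under 0.05 over all 21892 genes in limma. The share of all genes called in at least 1 comparison was not counted, so nothing is read from these counts. Before culture no member separated the genotypes. Culture without IL-4 moved many members in both genotypes, IL-4 moved fewer, and after culture the genotypes differed in a few. The share of all genes called is given below with each comparison. The number of arrays, 5 a group, limits the precision. The SD within groups had a median of 0.22 over the members and 0.36 over all genes, and it ranged from 0.10 to 0.83 among members, with P4ha2 (0.83), Ldhb (0.68) and Egln3 (0.67) the most variable.

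Before culture, KO_Pre and WT_Pre did not differ in any member: 0 of 36 were called, against 0% of all genes. None had non-overlapping groups either, as against 0.00457% of genes lower and 0% higher in every KO_Pre array. The member differences lay between -0.43 and 0.38 on the log2 scale, and 1 member, Hk2, had an unadjusted p under 0.05, as 4.07% of all genes did. Hk2 encodes a hexokinase isoform that is known to be inducible. Its ratio had a lowest value of 0.14, a median of 0.27 and a highest value of 0.47 in KO_Pre, and 0.39, 0.47 and 0.89 in WT_Pre (n = 10 each). The groups overlapped, and the difference of -0.29 ± 0.08 (SE) had an adjusted p of 1 in limma. The difference for Vegfa, which encodes vascular endothelial growth factor A, was -0.33, with KO_Pre arrays between -0.41 and 0.37 and WT_Pre arrays between -0.45 and 1.07.

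Culture without IL-4 was followed by opposite changes within both the HIF targets and the enzymes. In KO_Ctrl against KO_Pre, 9 members rose and 10 fell, 19 of 36, against 51% of all genes called in either direction (19.8% higher and 31.2% lower). In WT_Ctrl against WT_Pre, 7 rose and 8 fell, 15 of 36, against 39.5% of all genes (13.2% higher and 26.4% lower). The arrays did not overlap for 7 members higher and 8 lower in KO_Ctrl, against 13% and 16.3% of genes, and for 5 higher and 4 lower in WT_Ctrl, against 8.87% and 13.6%. Over all genes the median difference was -0.12 and -0.15, and with each array centred on its median 11 members rose and 8 fell in knockout and 10 rose and 5 fell in wild-type cells. These shares are near the background, so the count says nothing particular about the members. Over the members the median absolute difference was 0.47 in knockout and 0.28 in wild-type cells, and over all genes it was 0.50 and 0.40. Called in both genotypes were 6 members that rose (Vegfa, Aldoa, Aldoc, Eno2, Pgk1 and Slc16a1) and 7 that fell (Ldhb, Ankrd37, P4ha1, Ndrg1, Ldha, Slc2a1 and Pfkl). No member was called in opposite directions. The share of all genes called alike in both genotypes was not counted, so nothing is read from this agreement.

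**Figure D1:**
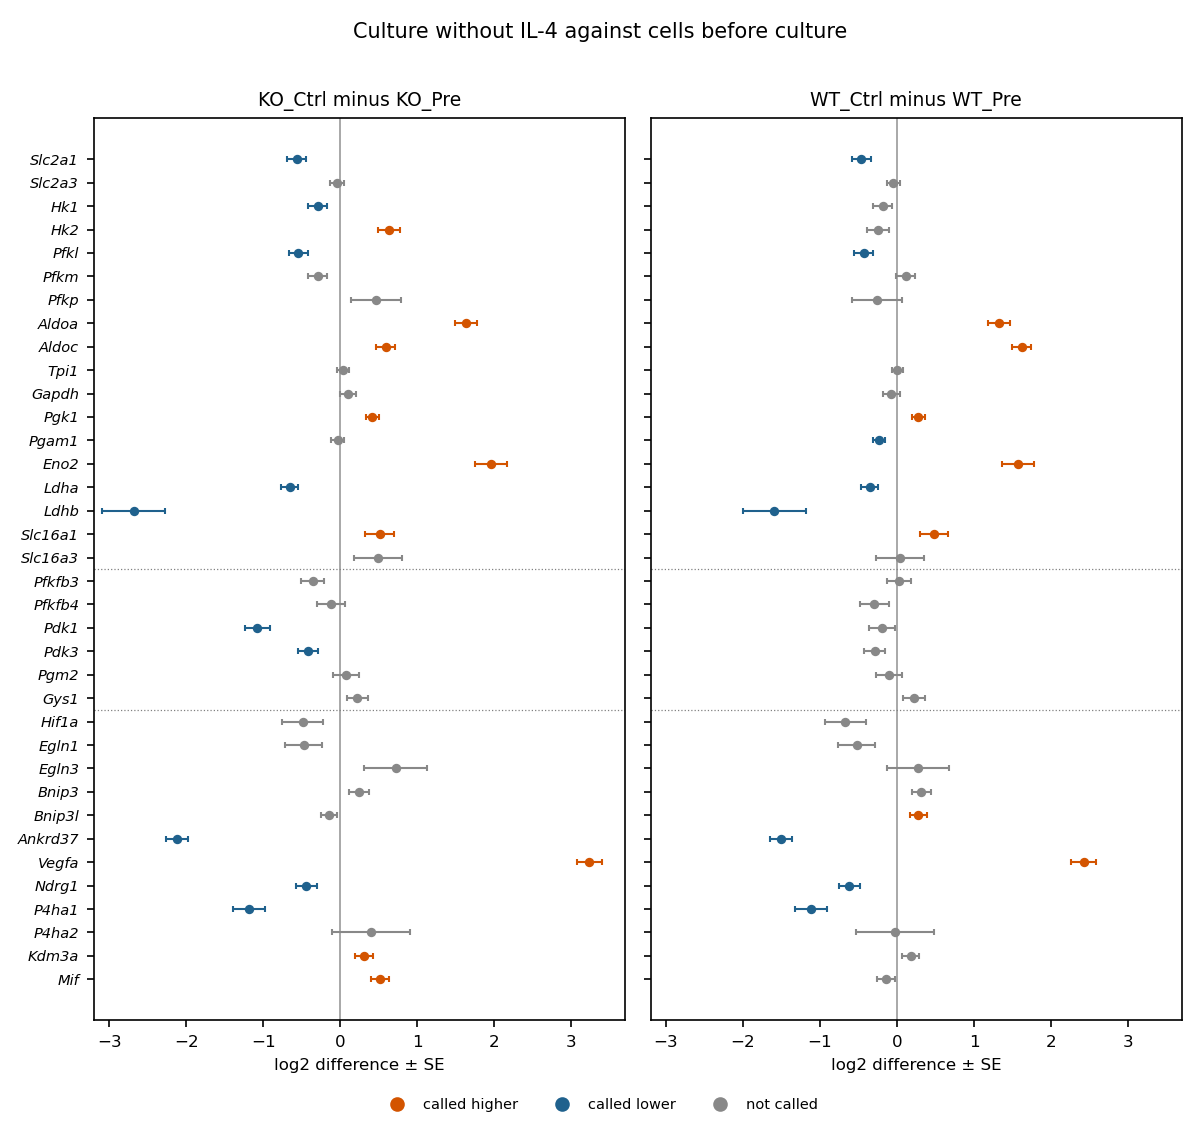
Difference of each of the 36 measured members between cells cultured without IL-4 and cells before culture, knockout on the left and wild-type on the right (x axis, log2 difference; bars, SE; orange, called higher; blue, called lower; grey, not called; dotted lines part the 3 classes, with core glycolysis at the top). Vegfa lies farthest to the right in both panels (3.24 and 2.42) and Ldhb farthest to the left (-2.68 and -1.59).

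Among the HIF targets, Vegfa rose most. Its ratio was 3.49, 3.35, 3.03, 3.35 and 3.03 in KO_Ctrl mice 6 to 10, against 0.08, 0.21, 0.32, -0.14 and -0.41 in KO_Pre. It was 3.18, 2.57, 2.59, 2.42 and 2.46 in WT_Ctrl, against 0.55, -0.15, 0.11, -0.02 and 0.61 in WT_Pre. Every cultured array lay above every uncultured one. The difference was 3.24 ± 0.17 in knockout cells (SE, 9.42-fold, adjusted p = 5.75e-14 in limma) and 2.42 ± 0.17 in wild-type cells (5.36-fold, adjusted p = 4.15e-11). Its 2 probes gave differences of 3.17 and 3.30 in knockout cells and of 2.33 and 2.52 in wild-type cells.

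Ankrd37, whose upstream window is printed above, moved the other way. Its ratio was -2.15, -1.93, -2.46, -2.41 and -2.23 in KO_Ctrl, against -0.21, -0.21, -0.19, -0.21 and 0.22 in KO_Pre. It was -2.17, -1.75, -1.63, -1.81 and -1.73 in WT_Ctrl, against -0.46, -0.34, -0.38, -0.43 and 0.04 in WT_Pre. The groups did not overlap, and Ankrd37 was 4.34-fold lower in KO_Ctrl (-2.12 ± 0.15, adjusted p = 1.16e-11 in limma) and 2.84-fold lower in WT_Ctrl (-1.505 ± 0.145, adjusted p = 1.63e-08). The dark corner controls fell by 1.86 and 1.19 in the same comparisons, and with their ratio as a covariate the Ankrd37 difference was -2.51 and -1.75. As this covariate itself moved with culture, it cannot tell a probe at background from a fall in RNA.

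P4ha1 and Ndrg1, a stress-responsive gene known as a hypoxia target, also fell in both genotypes. P4ha1 had ratios between -1.57 and -0.68 in KO_Ctrl and between -0.30 and 0.87 in KO_Pre, and between -1.35 and -0.89 in WT_Ctrl and between -0.72 and 0.43 in WT_Pre. The ranges were apart in both pairs, with differences of -1.18 ± 0.21 (adjusted p = 4.04e-05 in limma) and -1.12 ± 0.21 (adjusted p = 0.000186). Ndrg1 fell by 0.44 in knockout and by 0.62 in wild-type cells. Both Ndrg1 calls were lost under quantile normalization, and the knockout call was also lost with centred arrays. Kdm3a, a histone demethylase gene, rose in knockout cells (0.31 ± 0.11), and Bnip3l, a mitophagy receptor gene, rose in wild-type cells (0.28 ± 0.11), and each call was lost under 7 of 19 alternative settings. Mif, a cytokine gene known as a HIF target, rose in knockout cells alone among the called results (0.52 ± 0.12), and that difference between genotypes was tested below.

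The 3 members of the HIF axis, Hif1a, Egln1 and Egln3, did not pass the test. Hif1a differed by -0.49 ± 0.27 in KO_Ctrl against KO_Pre and by -0.67 ± 0.27 in WT_Ctrl against WT_Pre (adjusted p = 0.135 and 0.0503 in limma). Its 2 probes ran from -1.10 to 0.12 in knockout cells. The prolyl hydroxylase gene Egln1 differed by -0.47 and -0.52 and Egln3 by 0.72 and 0.27, with SEs of 0.24 and 0.41. Of the other HIF pathway genes counted below, Arnt was called lower in knockout (-0.50) and wild-type cells (-0.87). Epas1 was called lower in wild-type cells (-0.60) and not called in knockout cells (-0.07). Vhl was called lower in knockout (-0.18) and higher in wild-type cells (0.26).

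**Figure D2:**
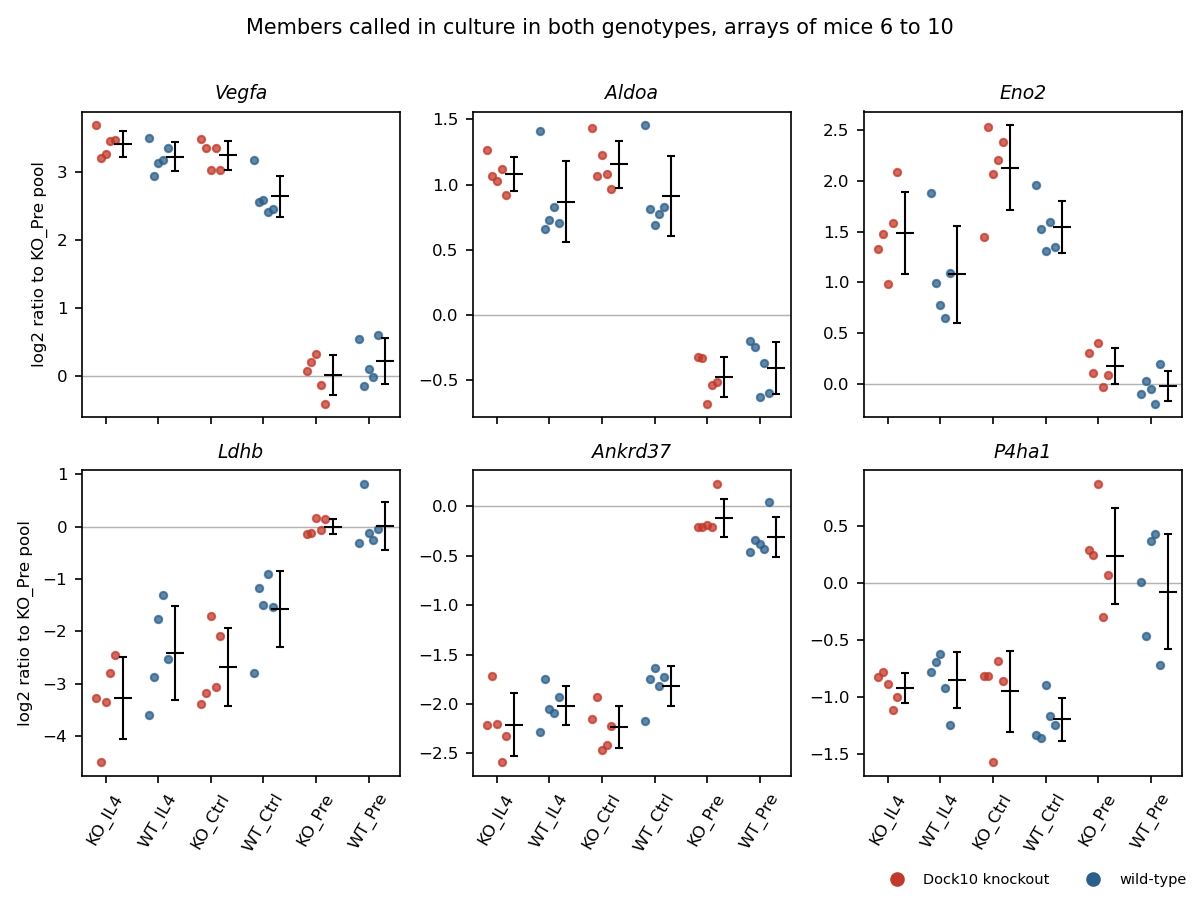
Log2 ratio to the KO_Pre pool (y axis) of 6 of the 13 members called in the same direction after culture in both genotypes, 1 point per array of mice 6 to 10 (red, Dock10 knockout; blue, wild-type; black, mean and SD, n = 5). The means of Vegfa, Aldoa and Eno2 lie higher and those of Ldhb, Ankrd37 and P4ha1 lower in the 4 cultured groups than before culture.

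In core glycolysis, of 18 measured members, 6 rose, 5 fell and 7 were not called in knockout cells, and 5 rose, 5 fell and 8 were not called in wild-type cells. The class median was 0.07 in knockout and -0.06 in wild-type cells, beside -0.12 and -0.15 for all genes.

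At uptake, Slc2a1, the gene of the widely expressed glucose transporter GLUT1, fell by 0.57 in knockout cells (adjusted p = 0.000684 in limma) and by 0.46 in wild-type cells (with an adjusted p of 0.00628). Slc2a3, the GLUT3 gene, differed by -0.05 ± 0.09 in both. Of the hexokinases, Hk2 rose by 0.63 ± 0.14 in knockout cells and had a difference of -0.25 ± 0.14 in wild-type cells, where it was not called. Pfkl, a phosphofructokinase isoform, fell by 0.54 and 0.43, and Pfkm and Pfkp were not called. The 2 probes of Pfkp were opposed, at -0.28 and 1.21 in knockout and at -1.11 and 0.59 in wild-type cells, with 1 called higher in each, so their mean does not describe either.

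Both aldolases rose. The ratio of Aldoa was 1.43, 1.07, 1.23, 1.08 and 0.96 in KO_Ctrl, against -0.32, -0.33, -0.68, -0.54 and -0.52 in KO_Pre. It was 1.45, 0.82, 0.69, 0.78 and 0.83 in WT_Ctrl, against -0.20, -0.24, -0.63, -0.37 and -0.60 in WT_Pre. No ranges overlapped, and the rise was 3.10-fold in knockout (adjusted p = 1.17e-09 in limma) and 2.50-fold in wild-type cells (adjusted p = 1.23e-07). Aldoc, the isoform known from brain, rose 1.51-fold in knockout and 3.07-fold in wild-type cells, as described further below.

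Of the steps that follow aldolase, Tpi1 and Gapdh were called in no comparison. Tpi1 differed by 0.04 ± 0.08 in knockout and 0.005 ± 0.08 in wild-type cells, and Gapdh, measured by 8 probes, by 0.10 ± 0.11 and -0.07 ± 0.11. Pgk1, the phosphoglycerate kinase gene, rose by 0.42 and 0.28. Pgam1 fell in wild-type cells by 0.23, a call lost under 7 of 19 alternatives.

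Eno2, the enolase isoform known from neurons, rose 3.88-fold in knockout and 2.97-fold in wild-type cells. Its ratio was 1.45, 2.54, 2.07, 2.21 and 2.39 in KO_Ctrl, against 0.30, 0.11, 0.41, -0.04 and 0.08 in KO_Pre. It was 1.96, 1.53, 1.31, 1.59 and 1.35 in WT_Ctrl, against -0.10, 0.03, -0.05, -0.19 and 0.20 in WT_Pre. All cultured arrays exceeded all uncultured ones (differences of 1.96 ± 0.21 and 1.57 ± 0.21, adjusted p = 3.18e-08 and 2.9e-06 in limma).

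The lactate dehydrogenase genes fell. Ldhb, whose isoform is known to favour lactate use, had ratios of -3.40, -3.17, -1.70, -3.07 and -2.09 in KO_Ctrl, against -0.14, -0.12, 0.17, -0.06 and 0.14 in KO_Pre. It had -2.79, -1.17, -1.49, -0.90 and -1.54 in WT_Ctrl, against -0.31, 0.81, -0.12, -0.25 and -0.05 in WT_Pre. The ranges were apart, while the cultured arrays spread widely. The difference was -2.68 ± 0.41 in knockout (6.42-fold lower, adjusted p = 6.96e-06 in limma) and -1.59 ± 0.41 in wild-type cells (3.01-fold lower, adjusted p = 0.00369), beside -1.86 and -1.19 for the dark corner controls. With that background as a covariate the Ldhb difference was -3.07 and -1.84, which does not set background apart from a fall in RNA either.

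Ldha, the isoform known for making lactate, fell by 0.65 ± 0.11 in knockout and by 0.35 ± 0.11 in wild-type cells (limma, adjusted p = 2.57e-05 and 0.0132). Slc16a1, the monocarboxylate transporter MCT1, rose by 0.51 ± 0.18 and 0.48 ± 0.18, and Slc16a3, the MCT4 gene, was not called in any comparison. The Slc16a1 call was lost under 5 of 19 alternatives in knockout cells, among them without KO_Ctrl mouse 8 (ratio 1.56, the others 0.31 to 0.57), and under 9 of 19 in wild-type cells, among them the mouse block and without mouse 6. The wild-type Ldha call was lost under 5 of 19, namely without WT_Ctrl mouse 6 (adjusted p = 0.0507), with centred arrays, under quantile normalization (-0.13), with the compared groups alone and with the background covariate.

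Of the regulators, Pdk1 and Pdk3, kinases that inhibit pyruvate dehydrogenase, fell in knockout cells by 1.08 ± 0.16 and 0.42 ± 0.14, and none of the 6 members was called in wild-type cells. Pfkfb3 and Pfkfb4, which set the level of a strong activator of phosphofructokinase, were called in no comparison, and the 2 probes of Pfkfb4 were called in opposite directions in wild-type cells (-1.02 and 0.43). Without the uncultured arrays numbered 10, 22 members were called in knockout and 19 in wild-type cells, against 54.5% and 45.6% of all genes. With the background ratio as a covariate, the counts were 11 and 13, against 25% and 21.1% of all genes, and among those lost in knockout cells were Mif (0.01), Pdk1 (-0.57) and P4ha1 (-0.72). Slc2a1, Pfkl, Pgk1 and Slc16a1 lost their calls with this covariate in both genotypes, and in wild-type cells also without mouse 6.

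IL-4, a cytokine that T cells give to B cells, was followed by smaller changes. In KO_IL4 against KO_Ctrl, 2 members rose and 1 fell, 3 of 36, against 8.4% of all genes called (4% higher and 4.39% lower). In WT_IL4 against WT_Ctrl, 8 rose and 3 fell, 11 of 36, against 26.9% of all genes (15.5% higher and 11.4% lower). The arrays did not overlap for 2 members higher and 2 lower in knockout cells, against 5.02% and 4.2% of genes, and for 5 higher and 3 lower in wild-type cells, against 17% and 8.52%. The members with 1 direction in both genotypes were Pdk3, which rose, and Slc2a3, which fell. No member of the HIF axis and targets was called in knockout cells, and Vegfa alone of its 12 was called in wild-type cells. Beside these results, 1 of 11 macrophage and monocyte markers was higher and 4 were lower in KO_IL4 than in KO_Ctrl, and 1 was higher and 6 were lower in WT_IL4 than in WT_Ctrl. Of 7 B cell markers, 1 was higher and 2 were lower in knockout cells, and 0 were higher and 3 lower in wild-type cells.

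**Figure D3:**
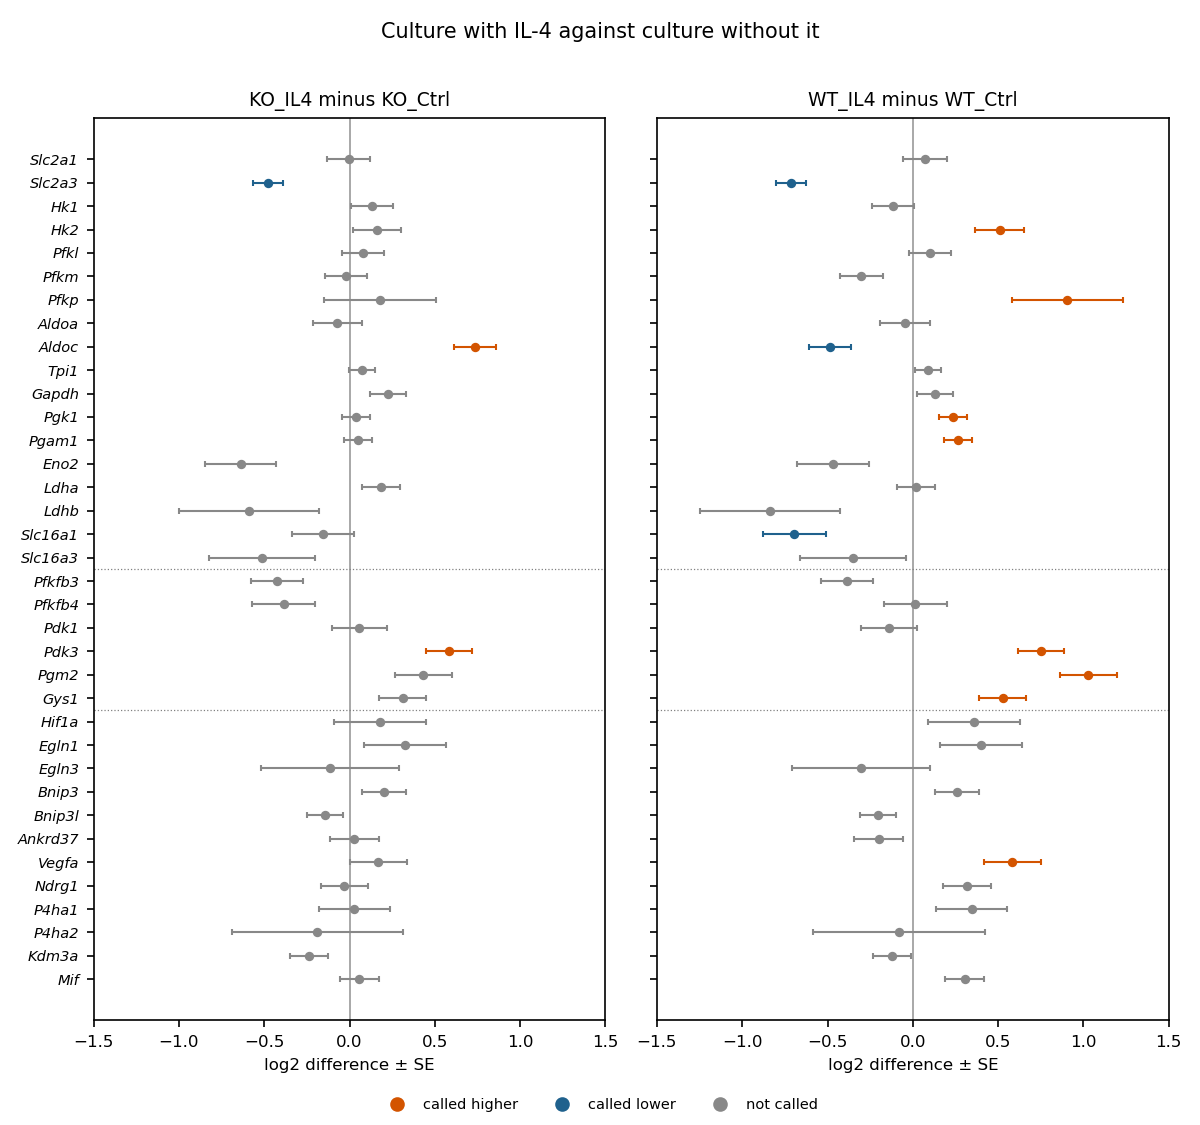
Difference of each of the 36 measured members between culture with and without IL-4, knockout on the left and wild-type on the right (x axis, log2 difference; bars, SE; orange, called higher; blue, called lower; grey, not called; dotted lines part the 3 classes). Aldoc lies to the right of 0 in knockout cells (0.74) and to the left in wild-type cells (-0.48).

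Slc2a3 had ratios of -0.45, -0.51, -0.49, -0.28 and -0.48 in KO_IL4, against -0.08, 0.12, 0.08, 0.06 and 0.01 in KO_Ctrl. It had -0.53, -0.66, -0.67, -0.43 and -0.57 in WT_IL4, against 0.16, 0.21, 0.05, 0.27 and 0.03 in WT_Ctrl. The groups were apart in each genotype, and the gene was 1.39-fold lower with IL-4 in knockout cells (adjusted p = 0.000675 in limma) and 1.64-fold lower in wild-type cells (adjusted p = 1.11e-06). Slc2a1 was not called in either.

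Pdk3 rose by 0.58 ± 0.14 in KO_IL4 (adjusted p = 0.00577 in limma) and by 0.75 ± 0.14 in WT_IL4 (adjusted p = 0.000154). Its ratio was 0.43, 0.69, 0.71, 0.26 and 0.08 in KO_IL4, against -0.12, 0.02, -0.32, -0.05 and -0.30 in KO_Ctrl. It was 0.55, 0.89, 0.78, 0.69 and 0.70 in WT_IL4, against -0.15, 0.16, 0.04, -0.04 and -0.18 in WT_Ctrl. Every array with IL-4 lay above every array without it in the same genotype.

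Pgm2 and Gys1, the phosphoglucomutase and the muscle-type glycogen synthase genes, rose in wild-type cells. Pgm2 had ratios of 1.18, 0.94, 0.99, 0.89 and 1.32 in WT_IL4, against 0.62, 0.01, -0.10, -0.19 and -0.18 in WT_Ctrl. The 2.04-fold rise (adjusted p = 5.21e-05 in limma) left the groups apart. In knockout cells the Pgm2 ratios were 0.66, 1.07, 0.94, 0.04 and 0.33 with IL-4, against 0.41, 0.12, -0.02, 0.20 and 0.15 without it, and the difference of 0.43 ± 0.17 had an adjusted p of 0.117. Gys1 rose by 0.53 ± 0.14 in wild-type cells and differed by 0.31 ± 0.14 in knockout cells, where it was not called. The test of the difference between genotypes did not call Pgm2 (-0.60, 95% interval -1.09 to -0.11, adjusted p = 0.204).

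In core glycolysis of wild-type cells, Hk2 (0.51), Pgam1 (0.26), Pgk1 (0.23) and Pfkp (0.91) rose and Slc16a1 (-0.70), Slc2a3 and Aldoc (-0.48) fell. The Pfkp value was 0.47 and not called without WT_Ctrl mouse 6 (adjusted p = 0.153 in limma). The Pfkp call was lost under 9 of 20 alternatives, other single arrays left out among them, and 1 of its 2 probes was called. The Pgk1 call was lost under 7 of 19 and the Pgam1 call under 3 of 19. Vegfa rose by 0.58 ± 0.17 in wild-type cells (adjusted p = 0.0108), and its 2 probes gave -0.10 and 1.27. Under quantile normalization the Vegfa call was lost (adjusted p = 0.133).

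Aldoc went in opposite directions with IL-4. Its ratio was 1.28, 1.29, 1.35, 1.04 and 0.90 in KO_IL4, against 0.60, 0.24, 0.70, 0.40 and 0.24 in KO_Ctrl. It was 0.97, 1.04, 0.79, 0.72 and 0.75 in WT_IL4, against 0.99, 1.30, 1.44, 1.45 and 1.49 in WT_Ctrl. All knockout arrays with IL-4 lay above those without, whereas in wild-type cells the values with IL-4 lay below apart from an overlap of mouse 7 with IL-4 and mouse 6 without it. The rise was 0.74 ± 0.12 in knockout cells (adjusted p = 0.000216 in limma) and the fall 0.48 ± 0.12 in wild-type cells (adjusted p = 0.00454). The difference between the IL-4 effects was 1.22 ± 0.17 (adjusted p = 0.000565), and Aldoc was the only member called in that test, against 1.19% of all genes (0.608% higher and 0.585% lower). Aldoc is measured by 1 probe. Under quantile normalization the difference was 0.95, with an adjusted p of 0.0875.

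After culture without IL-4, knockout and wild-type cells differed in 8 of 36 members, against 15.3% of all genes called (6.87% higher and 8.43% lower). In KO_Ctrl against WT_Ctrl, Hk2, Vegfa and Mif were higher and Aldoc, Pdk1, Pfkm, Ldha and Hk1 were lower. By class, 1 core glycolysis member was higher and 4 were lower, 1 regulator was lower and 2 HIF targets were higher. With IL-4, 2 of 36 members differed in KO_IL4 against WT_IL4, against 18.4% of all genes (8.57% higher and 9.85% lower): Slc16a1 was higher and Pdk1 was lower. The arrays did not overlap for 1 member higher and 3 lower without IL-4, against 3.97% and 6.43% of genes, and for 3 higher and 3 lower with IL-4, against 6.32% and 11.6%. With centred arrays, 1 member was higher and 4 were lower with IL-4. In KO_IL4 against WT_IL4, 4 of 7 T cell markers were lower and 0 higher (median difference -1.46), and of 7 B cell markers 4 were lower and 1 was higher (median -0.48).

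**Figure D4:**
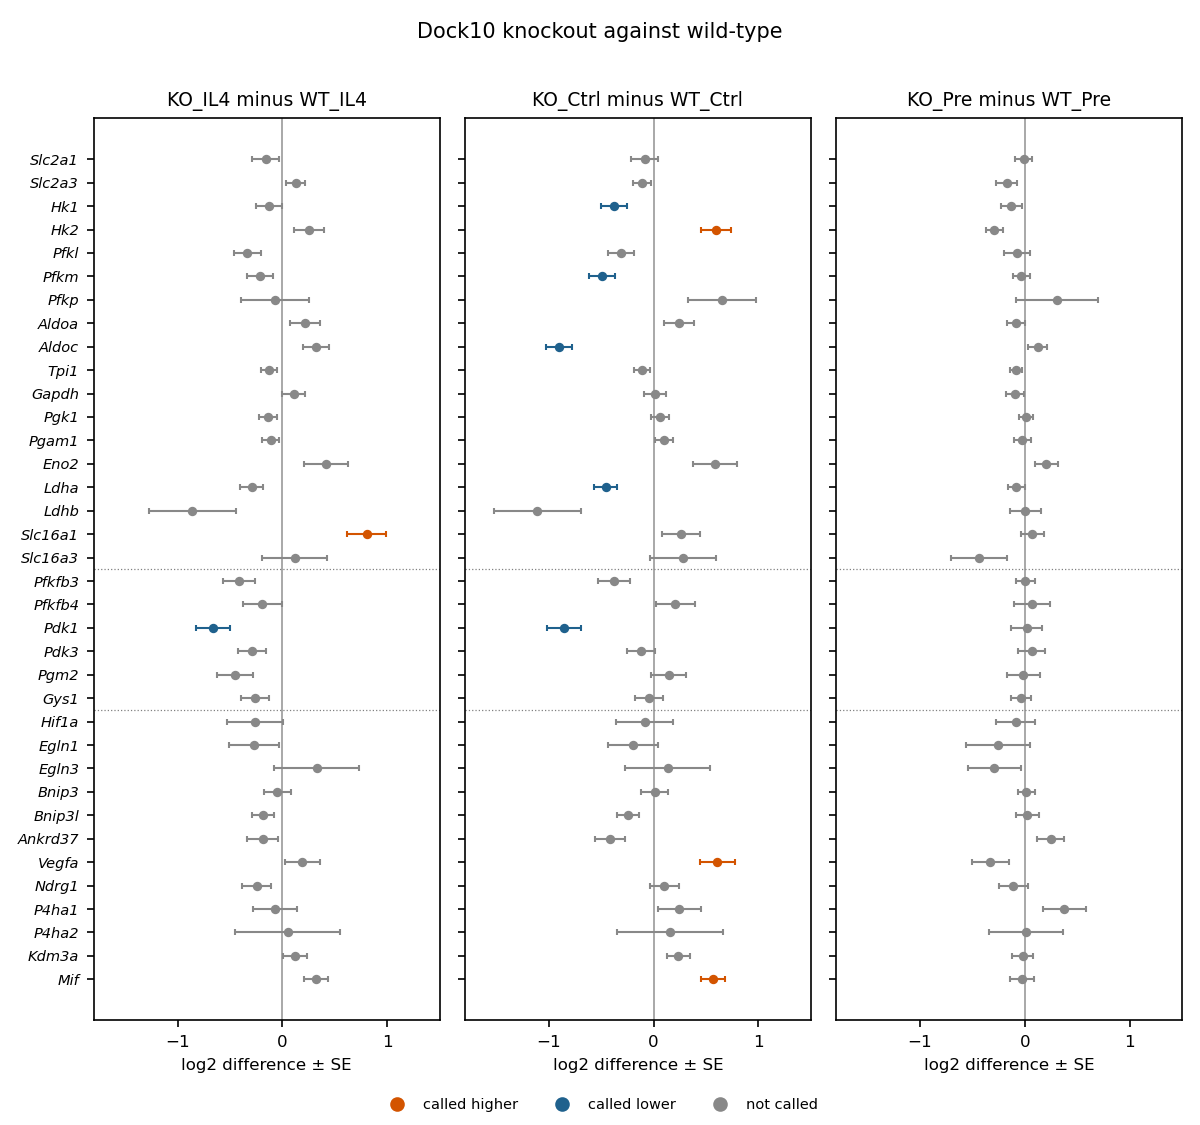
Difference of each of the 36 measured members between Dock10 knockout and wild-type cells, with IL-4 on the left, without IL-4 in the middle and before culture on the right (x axis, log2 difference; bars, SE; orange, called higher; blue, called lower; grey, not called; dotted lines part the 3 classes). Called members number 2 with IL-4, 8 without it and 0 before culture.

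Pdk1 was the member called in both cultured comparisons. Its ratio was -0.60, -0.85, -1.35, -0.86 and -1.11 in KO_Ctrl, against -0.48, -0.26, 0.15, 0.23 and -0.12 in WT_Ctrl. It was -0.87, -0.70, -0.66, -1.15 and -1.09 in KO_IL4, against -0.61, -0.13, -0.22, -0.02 and -0.20 in WT_IL4. Every knockout array lay below every wild-type array in the same state. The difference was -0.85 ± 0.16 without IL-4 (1.81-fold lower, adjusted p = 0.000507 in limma) and -0.66 ± 0.16 with it (1.58-fold lower, adjusted p = 0.00612).

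Mif ratios were 0.36, 0.54, 0.42, 0.57 and 0.56 in KO_Ctrl, against 0.14, -0.09, -0.15, -0.16 and -0.15 in WT_Ctrl. The groups were apart and all 4 probes of Mif were called higher (0.54 to 0.60), with a mean difference of 0.57 ± 0.12 (1.48-fold, adjusted p = 0.000975 in limma). With IL-4 the ratios were 0.54, 0.59, 0.53, 0.50 and 0.57 in KO_IL4, against 0.40, 0.34, 0.04, 0.17 and 0.18 in WT_IL4, also apart, and the difference of 0.32 ± 0.12 had an adjusted p of 0.051.

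Hk2 ratios were 0.73, 0.86, 0.50, 1.09 and 1.39 in KO_Ctrl, against 0.66, 0.28, 0.21, 0.16 and 0.28 in WT_Ctrl. Only wild-type mouse 6 reached into the knockout range, and the difference was 0.60 ± 0.14 (1.51-fold, adjusted p = 0.00415 in limma). Hk1, the isoform that most tissues express, had a difference of -0.38 ± 0.12, and its 3 probes ran from -0.997 to 0.07. The Hk1 call was lost under 11 of 19 alternatives, among them the median of probes, the compared groups alone and 7 single arrays left out.

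Ldha ratios were -0.896, -0.995, -0.657, -0.724 and -0.822 in KO_Ctrl, against -0.656, -0.24, -0.41, -0.21 and -0.29 in WT_Ctrl. The lowest wild-type value, again of mouse 6, lay just above the highest knockout value, and the difference was -0.46 ± 0.11 (1.37-fold lower, adjusted p = 0.00506 in limma). Aldoc was 1.87-fold lower in KO_Ctrl than in WT_Ctrl (-0.90 ± 0.12, adjusted p = 1.05e-05), with no overlap, and Pfkm was 1.41-fold lower (-0.49 ± 0.13). Vegfa was 1.52-fold higher in KO_Ctrl (0.61 ± 0.17, adjusted p = 0.0129).

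**Figure D5:**
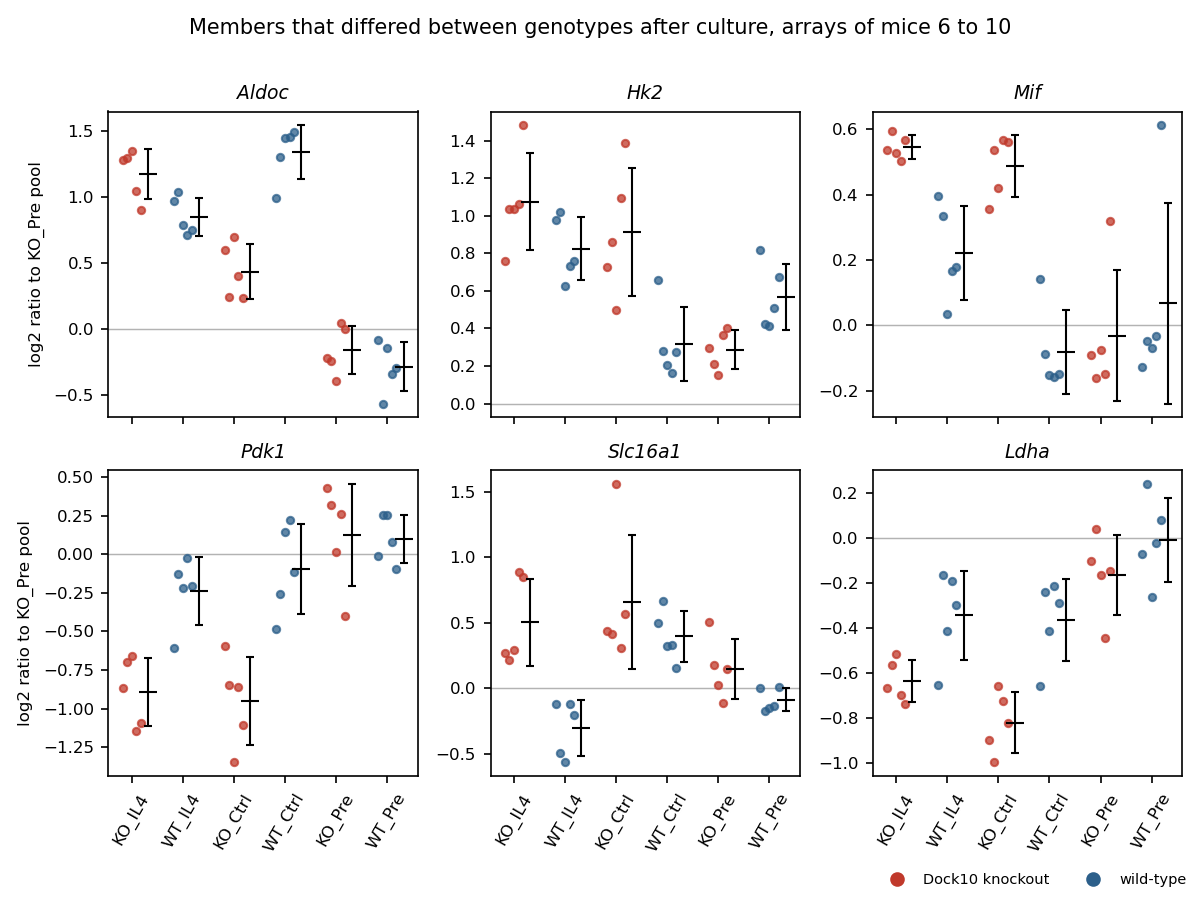
Log2 ratio to the KO_Pre pool (y axis) of 6 members that differed between the genotypes after culture, 1 point per array of mice 6 to 10 (red, Dock10 knockout; blue, wild-type; black, mean and SD, n = 5). Pdk1 lies lower in KO_IL4 and KO_Ctrl than in WT_IL4 and WT_Ctrl, and Aldoc is the member whose 2 genotypes trade places between the cultures.

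Slc16a1 differed with IL-4. Its ratio was 0.27, 0.22, 0.29, 0.89 and 0.85 in KO_IL4, against -0.12, -0.49, -0.57, -0.12 and -0.20 in WT_IL4. The groups were apart, with a difference of 0.80 ± 0.18 (1.74-fold, adjusted p = 0.00356 in limma). Without IL-4 the difference was not called (0.26), and the test of the difference between the IL-4 effects did not call Slc16a1 either (0.54, 95% interval 0.00 to 1.08, adjusted p = 0.301).

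The culture effect itself differed between genotypes in 5 members, against 6.68% of all genes (2.22% higher and 4.46% lower). It was higher in knockout cells for Hk2 (0.88 ± 0.20, adjusted p = 0.00669 in limma), Vegfa (0.81 ± 0.24, adjusted p = 0.0355) and Mif (0.67 ± 0.16, adjusted p = 0.0113), and lower for Aldoc (-1.02 ± 0.17, adjusted p = 0.000465) and Pdk1 (-0.88 ± 0.23, adjusted p = 0.0181). With the mouse as a block, which pairs the arrays of an animal, 8 members were called, the others being Pfkm, Bnip3l and Ankrd37. The Vegfa call was lost under 15 of 29 alternatives, among them without the uncultured arrays numbered 10 (0.61, adjusted p = 0.113), quantile normalization (0.32, adjusted p = 0.648), the SD filter, the trended robust fit and 11 single arrays left out.

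Wild-type mouse 6 was the wild-type array nearest to the knockout mean for all 8 members called in KO_Ctrl against WT_Ctrl and for both called in KO_IL4 against WT_IL4. Without its arrays, 12 members were called without IL-4, against 17.6% of all genes, and 8 with IL-4, against 19.5% of all genes. Since this mouse was singled out for lying near the knockout mean, leaving it out widens these differences by construction, and nothing is read from the higher counts. Quantile normalization forces the same distribution of ratios on every array, although their SD ranged from 0.29 to 1.18 in the deposited values. It left 1 call without IL-4 (Aldoc), against 3.08% of all genes, and 0 with IL-4, against 6.39%.

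The 10 members called in no comparison were Tpi1, Gapdh, Slc16a3, Pfkfb3, Pfkfb4, Hif1a, Egln1, Egln3, Bnip3 and P4ha2. Over the 7 comparisons of 2 groups, Tpi1 stayed between -0.13 and 0.09 and Gapdh between -0.10 and 0.23. P4ha2, a collagen prolyl hydroxylase subunit like P4ha1, ranged from -0.19 to 0.40 with the largest spread within groups of all members. Bnip3, a mitophagy receptor gene, had its largest difference in WT_Ctrl against WT_Pre (0.32, adjusted p = 0.0511 in limma), where 2 of its 3 probes were called higher. That a member missed the threshold does not show that it did not differ.

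Other genes of these pathways, listed by function, moved in both directions as well. Of 31 other HIF pathway and target genes, 6 rose and 7 fell in KO_Ctrl against KO_Pre (41.9%, against 51% of all genes called). In WT_Ctrl against WT_Pre, 5 rose and 9 fell (45.2%, against 39.5% of all genes). Among them, Hmox1, the heme oxygenase gene, rose by 2.14 in knockout and 1.16 in wild-type cells, Angptl4, an inhibitor of lipoprotein lipase, by 1.97 and 1.45, and Adm, the adrenomedullin gene, by 1.77 and 0.94. Ppp1r3c, a glycogen-targeting phosphatase subunit, fell by 1.92 and 1.22, and Arnt2, which can pair with HIF alpha subunits, by 1.02 and 1.03. With IL-4, none of the 31 was called in knockout cells, against 8.4% of all genes, and 10 were in wild-type cells, against 26.9%. These 10 were 7 higher and 3 lower, led by Epas1 (1.26), which encodes another HIF alpha subunit, and Cited2 (0.89). The interaction test for Epas1 gave -0.97 with an adjusted p of 0.148. Vhl, which marks HIF alpha subunits for degradation, was lower in KO_Ctrl than in WT_Ctrl (-0.30, adjusted p = 0.00576 in limma) and in KO_IL4 than in WT_IL4 (-0.43). Ddit4 was not called in any comparison.

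Of 18 other glycolysis genes, 4 rose and 7 fell in KO_Ctrl against KO_Pre (61.1%, against 51% of all genes called). In WT_Ctrl against WT_Pre, 3 rose and 3 fell (33.3%, against 39.5% of all genes). Slc2a6, a sugar transporter gene of the GLUT family, rose in culture by 1.46 and 1.35 and rose again with IL-4 by 1.75 in knockout and 1.98 in wild-type cells. Pkm, the pyruvate kinase gene, was not called in any comparison, with differences of -0.21 in KO_Ctrl against KO_Pre and -0.14 in KO_Ctrl against WT_Ctrl. At the entry of pyruvate into mitochondria (12 genes), Pcx, the pyruvate carboxylase gene, fell in culture by 0.94 in knockout and 0.98 in wild-type cells, rose with IL-4 by 0.63 and 1.25, and was lower in KO_IL4 than in WT_IL4 (-1.02). Of 12 glycogen genes, Pygl, the liver-type glycogen phosphorylase, was lower in KO_Ctrl than in WT_Ctrl (-1.27) and in KO_IL4 than in WT_IL4 (-0.99). Of 7 pentose phosphate genes, 1 rose and 1 fell with IL-4 in knockout cells, against 8.4% of all genes called. In wild-type cells 3 rose and 0 fell with IL-4, against 26.9% of all genes.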

How the data were processed

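Each value is a log2 ratio of Cy5 to Cy3, as deposited by the authors in the series' value table; scanning used Agilent Feature Extraction 11.0.1.1, per the submitters' processing notes. The log base was read from the spike-in controls, whose medians spanned 5.90, where log2 would give 6.64 and natural log 4.61. The order of the ratio is not written in the table and was read as sample over pool, with which Dock10 is lower in knockout cells; normalization is not given in the sources used here. Of 39485 probes, 30625 carried 1 gene symbol in the platform annotation, and probes of a gene were averaged (21892 genes). limma 3.58.1 in R 4.3.3 (lmFit and eBayes) was fitted on all genes, with 1 mean per group over the 30 arrays of mice 6 to 10, and on the 20 arrays before culture for KO_Pre against WT_Pre. P-values were adjusted by Benjamini-Hochberg over all genes. The fit was tested on simulated data. Members and lists were chosen with earlier results of these data known. Named members were the called ones with the largest differences per class, with their isoforms, and of other lists up to 3 called genes in each direction plus Pkm, Epas1, Vhl and Ddit4. The labels give cultured and uncultured arrays of a number to 1 mouse of each genotype, so the mouse pairs them. The main fit had no mouse term, so the SEs and p-values given do not use this pairing. Residuals of paired arrays correlated between 0.171 and 0.295 for WT_IL4 and WT_Ctrl, between -0.281 and 0.276 for KO_IL4 and KO_Ctrl, between -0.121 and 0.0965 for KO_Ctrl and KO_Pre and between -0.109 and 0.149 for WT_Ctrl and WT_Pre. Across genotypes, all 10 same-numbered pairs of KO_Pre and WT_Pre correlated (0.225 to 0.543). Only 2 of 10 KO_Pre arrays correlated best with their own number, so these values do not settle a pairing. On the data and not the labels, a block by number was therefore run as an alternative. The values given for KO_Pre against WT_Pre come from the fit without that block. Alternatives were array centring, quantile normalization, a filter on SD, the median of probes, a trended robust fit, mouse blocks, a sex term, the compared groups alone, each replicate left out, arrays in doubt left out and, chosen after seeing the data, the background ratio as covariate. The number of arrays sets the precision; depth does not apply.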

Additional observations from a re-analysis of the deposited data

Results flagged for a closer look

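In groups of 5 or 10 arrays, 22 of 216 member and group sets (10.2%) held an array far from the others by Dixon's criterion, where chance gives about 1 in 20. Wild-type mouse 6 stood apart in 7 of them. Without IL-4 its ratio was high for Hk2 (0.66), Aldoa (1.45), Pgm2 (0.62), Vegfa (3.18) and Mif (0.14). With IL-4 it was high for Aldoa (1.41) and low for Bnip3l (-0.19).

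Knockout mouse 8 without IL-4 was high for Slc16a1 (1.56) and low for P4ha1 (-1.57). In KO_IL4, mouse 9 was high for Slc2a3 (-0.28) and Gapdh (0.50), and mouse 6 stood apart for Pfkp (0.024) and Hif1a (0.42). In WT_Ctrl, mouse 7 stood apart for Gapdh (0.35) and Pgk1 (0.063), and in WT_IL4 mouse 7 did for Pgam1 (0.21). Before culture, single arrays stood apart in KO_Pre for Ldha (mouse 9, -0.45), Pfkfb3 (mouse 3, 0.63) and P4ha2 (mouse 1, 1.46). In WT_Pre they did for Pfkm (mouse 7, 0.47), Pfkp (mouse 3, -3.11) and Slc16a1 (mouse 5, 0.42).

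Effects that differed between genotypes by the interaction test in limma were the IL-4 effect on Aldoc (1.22) and the culture effects on Hk2 (0.88), Vegfa (0.81), Mif (0.67), Aldoc (-1.02) and Pdk1 (-0.88).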

How the results depend on the processing

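Of 64 calls of a member in a comparison, 19 held under every alternative that tested them, 32 were lost under quantile normalization (12 under it only) and 0 reversed. Quantile normalization gave 7 called members for WT_IL4 against WT_Ctrl (16.7% of all genes called) and 0 for KO_IL4 against KO_Ctrl (1.53%). It gave 1 for KO_Ctrl against WT_Ctrl (3.08%) and 0 for KO_IL4 against WT_IL4 (6.39%). It gave 0 for the IL-4 interaction (0.809%) and 1 for the culture interaction (1.67%). The cause was not tested. The SD filter left 13 members to test, and shares here are of the genes it kept. It gave 8 in KO_Ctrl against KO_Pre (54.9% of genes called) and 7 in WT_Ctrl against WT_Pre (47.3%). For IL-4 it gave 1 in knockout (6.75%) and 2 in wild-type cells (19.5%). For the genotypes it gave 3 without IL-4 (9.97%) and 1 with it (17.9%), and for the culture interaction 1 (4.26%). The background covariate gave 11 of 36 in KO_Ctrl against KO_Pre, against 25% of all genes. KO_IL4 against WT_IL4 gave 5 with centred arrays (19.3% of all genes called), 4 without the uncultured arrays numbered 10 (24.1%) and 8 without wild-type mouse 6 (19.5%). With the mouse as a replicate block, 20 members were called in KO_Ctrl against KO_Pre, where 52.1% of all genes were. In WT_Ctrl against WT_Pre it was 18, against 41.1%. For IL-4 it was 3 in knockout and 12 in wild-type cells, against 9.37% and 29.3%. The culture interaction gave 8, against 8.09%. The mouse number as a replicate block across genotypes, where animals share only a number, gave 0 for KO_Ctrl against WT_Ctrl and 6 for KO_IL4 against WT_IL4, against 1.82% and 26.8% of all genes; residuals of same-numbered arrays correlated between -0.171 and 0.169 and between 0.0911 and 0.299, and 3 of 5 knockout arrays in each correlated best with their own number. For KO_Pre against WT_Pre, 2 of 10 knockout arrays correlated best with their own number, so the data do not settle a pairing. There the block gave 0, as did the fit without it. Leaving out 1 replicate gave 17 to 21 for KO_Ctrl against KO_Pre, 12 to 17 for WT_Ctrl against WT_Pre, 3 to 5 and 9 to 13 for IL-4 in knockout and wild-type cells, 7 to 11 and 2 to 6 for the genotypes without and with IL-4, 1 to 2 for the IL-4 interaction and 4 to 6 for the culture interaction. Shares of all genes were not counted for the fits that left out 1 replicate. Signal over background was not in the table, so dim probes could not be set apart.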
